A study of Homo sapiens with 6 samples.

Results

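The MHC class II genes were examined in COV434 cells with and without BRG1, as a group of 10 of the 19899 genes in the table. The members were the rows named CIITA, CD74, HLA-DRA, HLA-DRB1, HLA-DPA1, HLA-DPB1, HLA-DQA1, HLA-DQB1, HLA-DMA and HLA-DMB, taken by name and not by a measured value. COV434 is an established human ovarian cell line, counted by the study among its lines of SCCOHT, a small cell ovarian carcinoma whose cells lack BRG1 protein. BRG1 is the ATPase encoded by SMARCA4 that drives the SWI/SNF chromatin remodeler. Control samples (n = 3) received a control plasmid (pCMV-neo or pCDNA3-neo, which of these is not stated for this line) and BRG1 samples (n = 3) received PBJ5-BRG1. Both groups also carried pBABE-puro and grew in puromycin at 2 to 3 µg/ml from 24 h after transfection until harvest, so that each sample is a mixture of the transfected cells that outlived selection and no Control sample is free of plasmid or drug. RNA was read as unstranded, poly(A)-selected libraries. No source used here says whether replicates came from separate cultures, so p-values measure the spread between these samples.

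MHC class II molecules are surface heterodimers of an alpha and a beta chain (the DR, DP and DQ pairs) that show peptides from endosomes to CD4+ T cells. CD74, the invariant chain, fills the groove and steers new heterodimers to endosomes, and the HLA-DM heterodimer of HLA-DMA and HLA-DMB swaps the last piece of CD74 for peptide. Their promoters share an X box, bound by the RFX complex and CREB proteins, and a Y box, bound by NF-Y. CIITA binds no DNA itself and is the coactivator that docks on these proteins. Professional antigen-presenting cells make CIITA constitutively, whereas in most other cell types it is induced by interferon gamma, with IRF1 among the factors that act on it, and BRG1 is a known cofactor of CIITA-driven transcription.

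The promoter sequences below are shown because the members share one regulatory layout yet, as measured, did not move together. RefSeq promoter windows (GRCh38.p14, 250 bases before to 50 bases after a start) were at hand for 8 of the 10 members, and CIITA and HLA-DRA had none. HLA-DPB1 (chr6:33075850-33075969, plus strand) and CD74 (chr5:150412931-150413050, minus strand) were called higher with BRG1. HLA-DRB1 (chr6:32589869-32589988, minus strand) and HLA-DMA (chr6:32953118-32953237, minus strand) were not called. HLA-DOB (chr6:32817023-32817142, minus strand) is a chain gene outside the members that was called higher. Each run covers positions -140 to -21 from the start, and capitals mark matches, on either strand, to the motifs named after them.
HLA-DPB1: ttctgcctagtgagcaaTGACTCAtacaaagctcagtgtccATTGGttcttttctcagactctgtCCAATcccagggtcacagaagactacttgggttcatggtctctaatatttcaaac
CD74: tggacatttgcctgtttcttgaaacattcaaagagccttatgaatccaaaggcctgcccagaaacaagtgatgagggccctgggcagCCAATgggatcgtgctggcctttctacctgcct
HLA-DRB1: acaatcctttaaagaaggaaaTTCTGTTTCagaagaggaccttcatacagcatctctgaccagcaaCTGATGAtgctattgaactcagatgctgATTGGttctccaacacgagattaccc
HLA-DMA: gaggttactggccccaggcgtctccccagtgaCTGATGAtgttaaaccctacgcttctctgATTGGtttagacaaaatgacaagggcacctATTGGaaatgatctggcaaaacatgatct
HLA-DOB: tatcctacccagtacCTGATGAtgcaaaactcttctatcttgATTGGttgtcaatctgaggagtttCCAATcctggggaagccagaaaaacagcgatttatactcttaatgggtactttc
The motifs searched on both strands were ATTGG (the Y box core, CCAAT on the other strand), CNGATGA (letters of the X box), TGANTCA (the AP-1 motif) and GAAANNGAA (letters of interferon-stimulated elements), and their matches did not overlap in these runs. The letters of CNGATGA and GAAANNGAA were chosen after these sequences had been read, so their counts are a description. Of the 9 member windows 7 held ATTGG, which 34.6% of all 35114 windows hold. CNGATGA lay in 6 of the 9, against 9.19% of all windows. In HLA-DRB1, HLA-DQB1, HLA-DMA and HLA-DMB the match was upstream on the strand of the gene. In CD74 (at -210) and HLA-DPA1 (at 4, after the start) it was on the other strand, so these 6 matches are not alike in place. CNGATGA followed by ATTGG after 15 to 30 bases was present in HLA-DRB1, HLA-DQB1 and HLA-DMA and in 0.157% of all windows, 55 in number, among them HLA-DOB, HLA-DQB2 and HLA-DRB5. TGANTCA was found among the member windows in HLA-DPB1 alone, at -123 and ahead of ATTGG at -99, and in 7.71% of all windows. Whether this match is part of an X box with letters other than CNGATGA was not tested. GAAANNGAA was in 4 of the 9 (CD74, HLA-DRB1, HLA-DPA1 and HLA-DMB), in 8 of 18 windows of class I presentation genes and in 8.11% of all. None of the 3 members with the paired motif was called, while HLA-DOB, which has it too, was called. A window without these letters may still hold an X box and a Y box, so the called members cannot be said to lack them.

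Sequencing depth was 29699741 to 63613710 estimated counts per sample, lowest in BRG1 sample 3. SMARCA4, the transfected gene, had 1439, 1676 and 1538 normalised counts in Control samples 1 to 3 and 108660, 79075 and 78589 in BRG1 samples 1 to 3, plasmid transcripts included (DESeq2 log2 fold change 5.84, SE 0.18, adjusted p = 5.4e-216). Normalised counts are estimated counts divided by DESeq2's size factors. Over all genes, DESeq2 called 1764 higher and 294 lower at an adjusted p under 0.05 (edgeR 1364 and 146), and 1035 lower (6.62%; edgeR 809, 5.68%) with the replicate number as a block. Adjusted p-values below are from DESeq2 unless edgeR is named.

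CD74, HLA-DRA, HLA-DPA1 and HLA-DPB1 were called higher, 4 of 10, and 0 were called lower. Of the called members CD74, HLA-DRA and HLA-DPB1 were near 0 in Control, while HLA-DPA1 was present there at a level like those of HLA-DRB1 and HLA-DQA1, which were not called. Of all genes with an adjusted p, 11.0% were called higher and 1.84% lower. By edgeR 3 of the 9 members it tested were called higher, against 9.57% of its genes (1.02% lower), and CD74 was removed by its filter on low counts. HLA-DRA and HLA-DPB1 could pass that filter only through the BRG1 samples, so their calls there follow in part from the filter. Of the 10 members 6 had a log2 fold change above 0, the median was 0.52, and the median of all 18096 genes with a count was -0.001. In 4 members all 3 BRG1 samples lay above all 3 Control samples, which was the case for 15.4% of genes with a count, and in 0 members all lay below, against 8.88%. In a bulk sample a few cells with much class II RNA and many cells with little cannot be told apart.

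**Figure D1:**
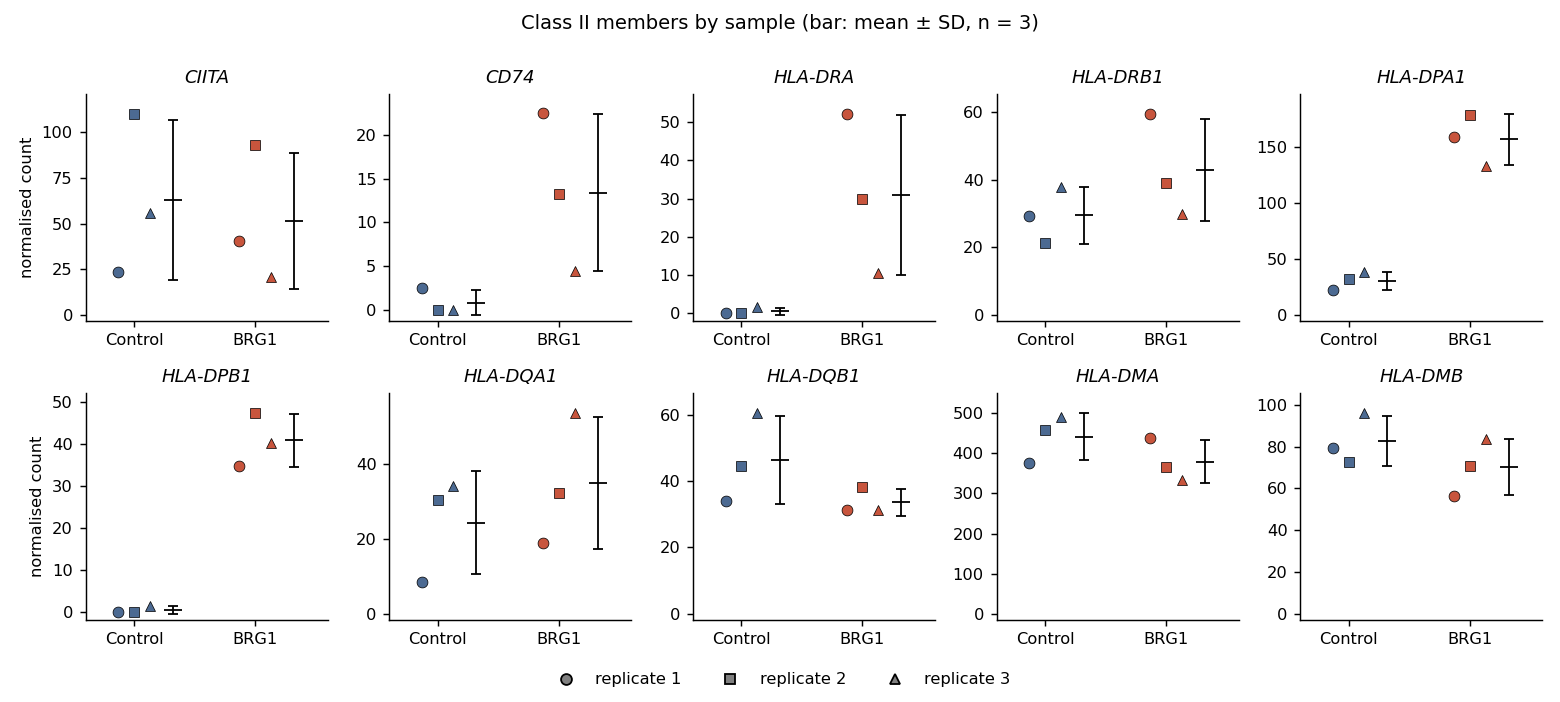
Normalised counts of the 10 class II members in each sample (linear axes that start near 0 and differ between panels; circles, squares and triangles are replicates 1, 2 and 3; bars are the mean ± SD of n = 3). Control and BRG1 samples are apart for CD74, HLA-DRA, HLA-DPA1 and HLA-DPB1 and overlap for the other members.

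Both DP chains rose in every BRG1 sample. HLA-DPA1, the DP alpha chain (chr6:33064569-33080775 on GRCh38, GENCODE release 44), had 21.9, 31.7 and 37.9 normalised counts in Control samples 1 to 3 and 159, 179 and 133 in BRG1 samples 1 to 3. Every BRG1 sample was thus well above every Control sample, and the mean rose from 30.5 ± 8.03 to 157 ± 22.9 (SD, n = 3; log2 fold change 2.35, SE 0.34, adjusted p = 9.7e-11; edgeR adjusted p = 0.00253). Sample 1 against sample 1 gave a 7.24-fold rise, with 5.64-fold and 3.51-fold for samples 2 and 3. HLA-DPB1, the DP beta chain (chr6:33075990-33089696), overlaps HLA-DPA1 head to head, and 1.84% of its exonic bases lie in exons of HLA-DPA1. Its 3 Control samples held 0, 0 and 1.64 estimated counts, and its BRG1 samples held 34.8, 47.3 and 40.3 normalised counts (mean 40.8 ± 6.28). All Control samples were at 3 counts or fewer, the level treated here as the floor, and against that floor the rise was at least 12.97-fold (adjusted p = 8.2e-06, edgeR adjusted p = 0.00173). Both DP genes were called in each of 6 fits that left out 1 sample.

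HLA-DRA, the monomorphic alpha chain of HLA-DR (chr6:32439878-32445046), went from the floor to a level that varied between samples. Its Control samples held 0, 0 and 1.99 estimated counts, and its BRG1 samples held 52.2, 29.9 and 10.4 normalised counts (mean 30.9 ± 20.9). The lowest BRG1 sample, number 3, still exceeded all Control samples. The rise was at least 9.80-fold (adjusted p = 0.000535, edgeR adjusted p = 0.00968), and HLA-DRA was called in 6 of 6 fits without 1 sample, with adjusted p from 0.000108 to 0.0337. HLA-DRB1, its main beta partner (chr6:32577902-32589848), was detected in both groups. It had 29.2, 21.1 and 37.9 normalised counts in Control and 59.5, 39.0 and 29.9 in BRG1 samples, so that the groups overlapped (log2 fold change 0.55, 95% interval -0.41 to 1.51, adjusted p = 0.641).

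CD74 (chr5:150401637-150412969) rose at the edge of detection. Its Control samples held 2.30, 0 and 0 estimated counts and its BRG1 samples 31.3, 15.7 and 2.73, so BRG1 sample 3 was itself at the floor while its normalised count, 4.48, lay above those of Control. The mean normalised count went from 0.812 ± 1.41 to 13.4 ± 9.01, at least 4.26-fold (adjusted p = 0.0456). That call was lost in 4 of 6 fits without 1 sample (without Control replicate 2 or 3 and without BRG1 replicate 1 or 2), where the adjusted p reached 0.476, and without independent filtering (adjusted p = 0.0516).

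**Figure D2:**
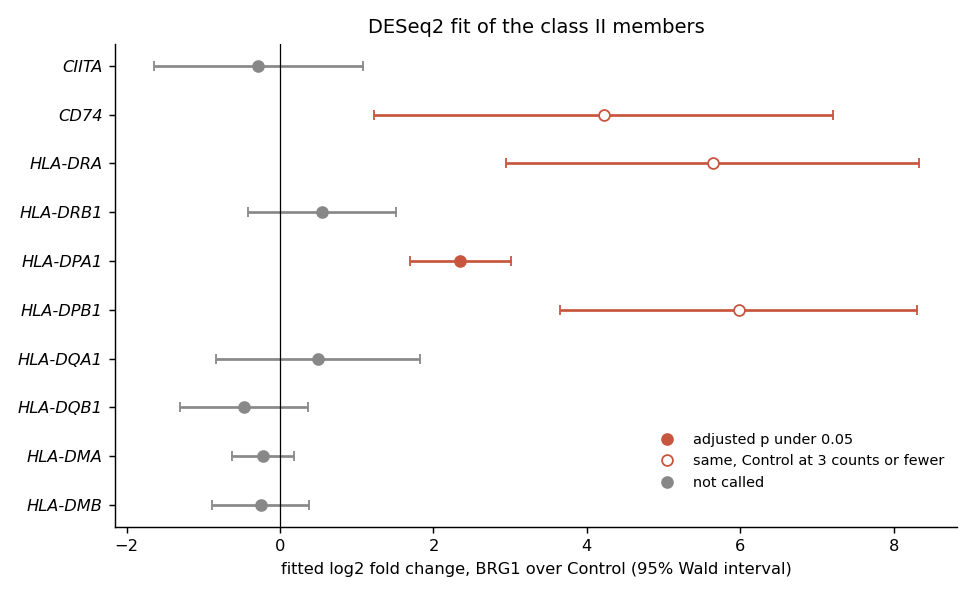
DESeq2 log2 fold change of each member, BRG1 over Control, with its 95% Wald interval (n = 3 against 3; the line marks 0). Filled red points were called, open red points were called with all Control samples at 3 counts or fewer, so that the fitted size depends on the model, and grey points, whose intervals all include 0, were not called.

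CIITA, the coactivator of the pathway (chr16:10866222-10943021), was low in both groups and was not called. It had 23.1, 110 and 56.0 normalised counts in Control samples 1 to 3 and 40.6, 93.0 and 20.9 in BRG1 samples 1 to 3, so that the samples numbered 2 were the highest in either group and the groups overlapped entirely. The means were 63.1 ± 43.97 and 51.5 ± 37.3 (SD, n = 3; log2 fold change -0.28, 95% interval -1.65 to 1.083, adjusted p = 0.910). Its direction was set by single samples, since the log2 fold change was 0.38 without Control replicate 2, 0.08 without BRG1 replicate 3 and -1.02 without BRG1 replicate 2. CIITA shares 21.6% of its exonic bases with other annotated genes, DEXI among them, and its reads cannot be told by strand, so its value is uncertain for that reason too.

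The DQ pair was present at similar levels in both groups. HLA-DQA1, the DQ alpha chain (chr6:32628179-32647062), had 8.53, 30.5 and 34.1 normalised counts in Control and 18.9, 32.4 and 53.7 in BRG1 samples (log2 fold change 0.49, 95% interval -0.83 to 1.82, adjusted p = 0.804). HLA-DQB1, the DQ beta chain (chr6:32659467-32668383), had 34.1, 44.6 and 60.6 in Control and 31.2, 38.2 and 31.3 in BRG1 samples (log2 fold change -0.47, 95% interval -1.31 to 0.36, adjusted p = 0.639). The groups overlapped for both chains, and neither was called in any fit without 1 sample. DQA1, DQB1 and DRB1 are highly polymorphic and have close relatives in the region, so reads of this line's alleles may be split between them or lost.

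The HLA-DM chains were present in every sample, and their groups overlapped. HLA-DMA (chr6:32948613-32969094) had 376, 458 and 491 normalised counts in Control and 437, 366 and 333 in BRG1 samples (442 ± 58.9 and 379 ± 53.4, log2 fold change -0.22, 95% interval -0.62 to 0.19, adjusted p = 0.665). HLA-DMB (chr6:32934629-32941028) had 79.2, 72.7 and 96.2 in Control and 56.6, 70.6 and 83.6 in BRG1 samples (log2 fold change -0.25, 95% interval -0.88 to 0.38, adjusted p = 0.779). For HLA-DMA the interval excludes changes as large as those of HLA-DPA1. Exons of a readthrough transcript cover part of both genes, 8.53% of the exonic bases of HLA-DMA being shared (with BRD2 as well) and 9.49% of those of HLA-DMB.

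Levels were then compared between genes per length, as estimated counts per kb of the canonical GENCODE transcript scaled to the total of each sample (counts per kb per 10 to the power 6 counts). In Control, HLA-DMA was highest at 8.65 ± 1.11, followed by HLA-DMB at 1.31, and these were apart from each other and from the rest. HLA-DQB1 at 0.616, HLA-DRB1 at 0.515, HLA-DPA1 at 0.379 and HLA-DQA1 at 0.326 came next, and each overlapped its neighbour in this order. CIITA at 0.0836, CD74 at 0.0122, HLA-DRA at 0.00871 and HLA-DPB1 at 0.00223 were at the bottom, again with overlap between neighbours. With BRG1, HLA-DMA stayed at the top at 7.65 ± 0.931 and HLA-DPA1 came second at 2.03 ± 0.278, above HLA-DMB at 1.15 in all samples. HLA-DRB1 at 0.770 was above HLA-DQB1 at 0.463 in all samples. The samples of HLA-DRA at 0.548 and HLA-DQA1 at 0.496 overlapped each other and those of both these genes. The means of HLA-DPB1 at 0.228, CD74 at 0.176 and CIITA at 0.0710 were the lowest. However, the samples of HLA-DPB1 overlapped those of HLA-DRA and HLA-DQA1. The samples of CD74 overlapped those of HLA-DRA, HLA-DQA1, HLA-DPB1 and CIITA. The transcript taken had 16061 bases for CIITA and 3991 for HLA-DPB1, against 1093 to 1704 for the other members. The places of CIITA and HLA-DPB1 in these orders therefore depend on that choice. The study itself aligned reads to an earlier GENCODE release.

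Summed over the 6 DR, DP and DQ chain genes among the members, this level was 1.37, 1.73 and 2.44 in Control and 4.86, 4.81 and 3.95 in BRG1 samples. The groups did not overlap (1.85 ± 0.547 and 4.54 ± 0.509, SD, n = 3). HLA-DQA2 and HLA-DQB2 are not in this sum. HLA-DQB2 alone had 2.32, 3.10 and 4.23 in Control, above the sum in each Control sample, and 0.380, 1.90 and 3.05 in BRG1 samples. The rise of the sum therefore holds for these 6 genes only and not for all DR, DP and DQ chain genes. The sum of HLA-B and HLA-C, heavy chains of class I, was 340, 316 and 282 in Control and 1882, 1824 and 1521 in BRG1 samples. RNA of these class II chains was therefore a small fraction of that of HLA-B and HLA-C in every sample of either group.

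**Figure D3:**
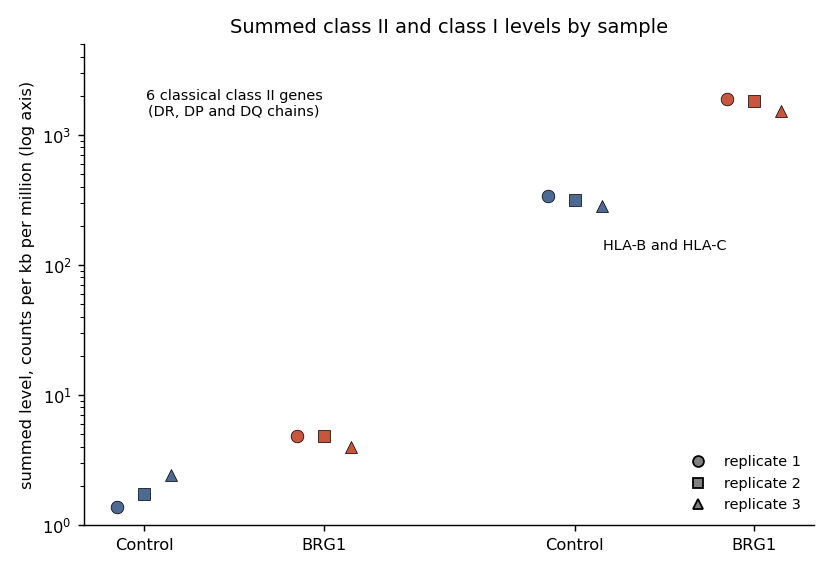
Summed level per kb of transcript, scaled to the total of each sample, (log axis) of 6 class II chain genes and of HLA-B and HLA-C in each of the 3 Control (blue) and 3 BRG1 (red) samples. Both sums were higher in every BRG1 sample than in every Control sample, and the class II sum, at most 4.86, stayed far below the class I sum, at least 282. HLA-DQA2 and HLA-DQB2 are not in the class II sum.

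The class II members on chromosome 6 lie together, so the stretch from HLA-DRA to HLA-DPB1 (chr6:32439878-33089696, 649.8 kb) was read gene by gene. It held 17 genes of the table, of which DESeq2 called 8 higher and 0 lower (11.0% and 1.84% over all genes). edgeR likewise called 8 higher (9.57% over all genes) and did not test HLA-DOA. HLA-DRA, HLA-DPB1, HLA-DOB and PSMB8 could pass its filter on low counts only through the BRG1 samples. Their edgeR calls, with or without the block, follow in part from that filter. The called genes did not form one block. HLA-DRA lay at one end and HLA-DPA1 with HLA-DPB1 at the other. HLA-DOB lay in the middle beside TAP2, PSMB8, PSMB9 and TAP1, genes of class I peptide supply. HLA-DRB1, HLA-DQA1 and HLA-DQB1 on one side of these, and HLA-DMB, HLA-DMA and BRD2 on the other, were not called. With the replicate number as a block, HLA-DOB (adjusted p = 0.0558) and PSMB8 (adjusted p = 0.0765) were no longer called by DESeq2, while edgeR still called both (adjusted p = 0.0151 and 0.0316).

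**Figure D4:**
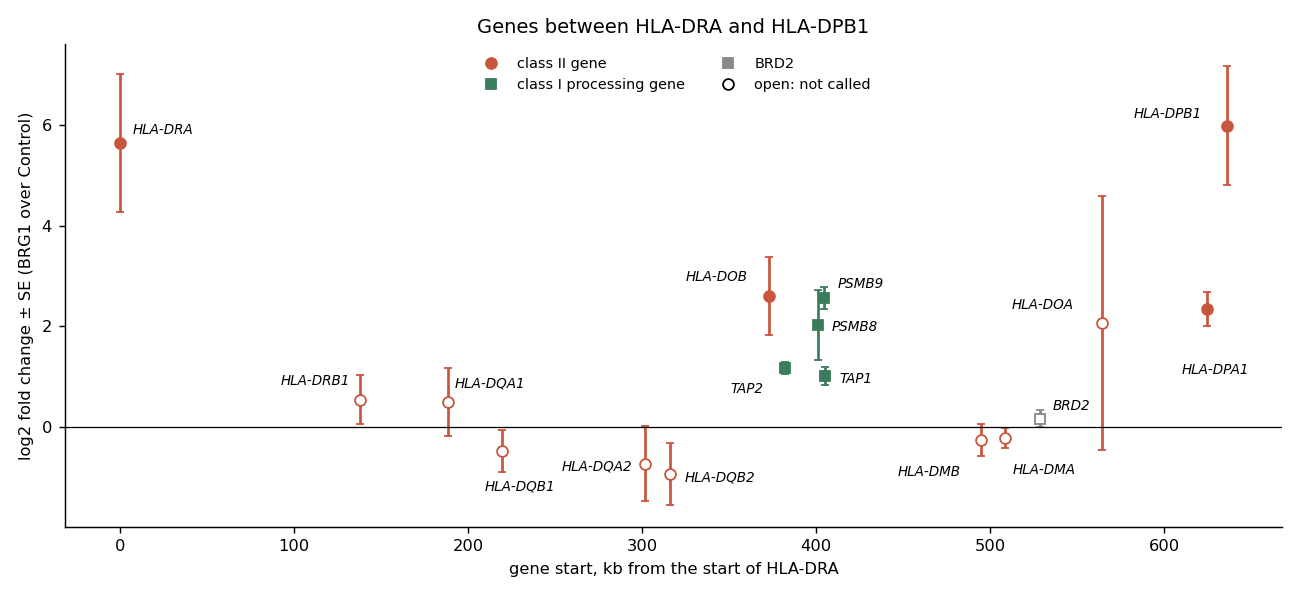
DESeq2 log2 fold change ± SE (BRG1 over Control, n = 3 against 3) of the 17 genes between HLA-DRA and HLA-DPB1, by the distance of the gene start from that of HLA-DRA in kb. The 8 filled points were called higher and lie at both ends and in the middle of the region, with open, uncalled class II genes between them.

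The other class II chain genes were mostly near 0. Of 7 listed, 6 had a count and 1 was called higher (11.0% over all genes). HLA-DOB, the beta chain of HLA-DO, which restrains HLA-DM, had 3.65, 3.52 and 3.79 normalised counts in Control and 26.1, 26.6 and 13.4 in BRG1 samples (log2 fold change 2.61, SE 0.78, adjusted p = 0.00826, edgeR adjusted p = 0.0107). HLA-DOB could pass the low-count filter of edgeR only through the BRG1 samples. A readthrough transcript shares 30.4% of the exonic bases of HLA-DOB. Its partner HLA-DOA had at most 7.46 normalised counts in any sample. HLA-DQB2 went from 183 ± 54.6 to 96.3 ± 71.9 and was not called (adjusted p = 0.434), but was called lower with the block by DESeq2 (adjusted p = 0.0295) and not by edgeR (adjusted p = 0.0796), and HLA-DQA2, HLA-DRB3 and HLA-DRB4 were not called.

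Proteins that occupy class II promoters were examined next, and nearly all of their genes were not called. Of 12 genes of the promoter complex and its coactivators, 1 was called higher and 0 lower (11.0% and 1.84% over all genes), with a median log2 fold change of -0.07. RFX5, which carries the DNA-binding domain of RFX, had 6540 ± 402 and 5984 ± 551 normalised counts (log2 fold change -0.13, 95% interval -0.40 to 0.14). The gene called was NFYB, a histone-fold subunit of NF-Y, with 1034 ± 42.5 and 1398 ± 173 (log2 fold change 0.44, adjusted p = 0.0425). edgeR did not call it (adjusted p = 0.122), but did with the replicate number as a block (edgeR adjusted p = 0.0254).

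Of 11 genes of the interferon gamma route that leads to CIITA, DESeq2 called 2 higher (11.0% over all genes), and edgeR called 1 of the 10 it tested (9.57% over all genes). These shares are near the background. The log2 fold changes of the 11 genes were all above 0, with a median of 0.26, and those not called included PTPN2 (0.01), USF2 (0.03) and JAK2 (0.06). SOCS1, a feedback inhibitor of JAK kinases, went from 12.2 ± 2.83 to 45.2 ± 12.6 (log2 fold change 1.92, adjusted p = 0.00276). IRF2, which binds the interferon-responsive promoter of CIITA with IRF1, was called by DESeq2 (log2 fold change 0.51, adjusted p = 0.0264) and not by edgeR (adjusted p = 0.108). IFNG, the ligand, had 0, 0 and 5.30 normalised counts in Control and 0, 0.831 and 5.97 in BRG1 samples, at or near the floor in all.

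IRF1 values followed the replicate number as well as the group. It had 6400, 5760 and 570 normalised counts in Control samples 1 to 3 and 14244, 16698 and 2233 in BRG1 samples 1 to 3, so that the samples numbered 3 were low in both groups. It was not called without the block (log2 fold change 1.38, adjusted p = 0.586) and was called with it (log2 fold change 1.55, adjusted p = 1.1e-21). With the block both tools called 5 of the 11 genes higher, while over all genes DESeq2 then called 13.4% higher and edgeR 13.7%. The added ones were IRF1, JAK1 (adjusted p = 0.0045) and IFNGR1 (adjusted p = 0.0167), and for edgeR also IRF2 (edgeR adjusted p = 0.0251). The BRG1 sample with the lowest IRF1, number 3, also had the lowest CD74, HLA-DRA and HLA-DPA1 of its group, but not the lowest HLA-DPB1. Among the members not called, it had the lowest CIITA, HLA-DRB1 and HLA-DMA, but not the lowest HLA-DQA1, HLA-DQB1 or HLA-DMB. In Control the order differed, since sample 3 had the lowest IRF1 and the highest HLA-DPA1. The part of IRF1 in the class II values was not tested.

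Genes known to hold CIITA down were listed as well. MYCN was the 1 of 7 called higher (11.0% over all genes). It had 10.96, 5.86 and 2.27 normalised counts in Control and 644, 274 and 197 in BRG1 samples (log2 fold change 5.94, adjusted p = 6.4e-20). EZH2, the H3K27 methyltransferase, went from 1876 ± 555 to 1440 ± 386 (log2 fold change -0.38, adjusted p = 0.525) and was called lower with the block (adjusted p = 0.0178, edgeR adjusted p = 0.0335). HDAC2 was called lower with it by DESeq2 (adjusted p = 0.0181) and not by edgeR (adjusted p = 0.0625), and MYC higher by DESeq2 (adjusted p = 0.0126) and not by edgeR (adjusted p = 0.0609). PRDM1, the repressor that silences CIITA in plasma cells, had 4.34 ± 3.07 and 22.6 ± 13.8 and was not called (adjusted p = 0.0876). Of 5 factors that drive CIITA in myeloid and B cells (SPI1, IRF4, IRF8, PAX5 and EBF1), 0 were called by DESeq2, with 0 at an unadjusted p under 0.05, and edgeR tested none of them. Their means were at most 4.49 normalised counts in either group.

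Peptide supply for class II was examined through 10 genes, of which DESeq2 called 3 higher (11.0% over all genes) and edgeR 2 (9.57%). IFI30, the lysosomal thiol reductase that opens disulfide bonds of antigens, rose from 191 ± 55.0 to 581 ± 46.6 normalised counts (log2 fold change 1.61, adjusted p = 4.5e-09), and 42.5% of its exonic bases lie in exons of other genes. CTSL, a lysosomal cysteine protease, rose from 2601 ± 147 to 3974 ± 406 (log2 fold change 0.61, adjusted p = 0.000251). CTSS, the cathepsin that trims CD74 in antigen-presenting cells, had 12.2, 9.38 and 6.06 in Control and 46.4, 69.8 and 11.9 in BRG1 samples, whose ranges overlapped narrowly (log2 fold change 2.25, adjusted p = 0.0250, edgeR adjusted p = 0.0792). With the block DESeq2 called 5 (13.4% over all genes), CTSB (adjusted p = 0.00367) and CTSD (adjusted p = 0.00835) being added. edgeR with the block also called 5 (13.7% over all genes), now with CTSS (edgeR adjusted p = 0.0268).

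CD74 also serves at the cell surface as the receptor for the cytokine MIF. MIF itself had 15040 ± 2060 and 13300 ± 1576 normalised counts and was not called (log2 fold change -0.18, 95% interval -0.52 to 0.16). Other genes share 94.1% of the exonic bases of MIF, so its value is uncertain. Of 6 genes for its ligands and coreceptors 3 were called higher (11.0% over all genes). CD44, the signalling partner of CD74, had 74.3, 55.1 and 40.1 in Control and 10055, 5767 and 2608 in BRG1 samples (log2 fold change 6.77, adjusted p = 3.0e-50). CXCR4 had 659, 672 and 601 in Control and 10947, 7300 and 2664 in BRG1 samples (log2 fold change 3.44, adjusted p = 4.8e-15), and ACKR3, whose Control samples were at 3 counts or fewer, rose at least 215-fold. For CD44, CXCR4 and ACKR3, as for CD74 and HLA-DRA, BRG1 sample 1 was the highest and sample 3 the lowest. HLA-DPA1 and HLA-DPB1 did not have this order, and both were highest in sample 2.

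The class I presentation genes serve as the comparator. Of 14 listed, both DESeq2 and edgeR called 13 higher (11.0% and 9.57% over all genes). Their median log2 fold change was 1.86 beside 0.52 for the class II members. NLRC5, the class I counterpart of CIITA, had 861, 770 and 756 normalised counts in Control and 3356, 2534 and 1840 in BRG1 samples (log2 fold change 1.70, SE 0.24, adjusted p = 8.0e-11). In contrast to CIITA, every BRG1 sample was above every Control sample. HLA-B showed a log2 fold change of 2.71, HLA-C of 2.17 and B2M of 2.02. HLA-F, PSMB9, ERAP2, PSMB8, ERAP1, TAP2, HLA-E, TAP1 and TAPBP made up the rest of the called genes, and HLA-G, with all Control samples at 3 counts or fewer, was not called.

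**Figure D5:**
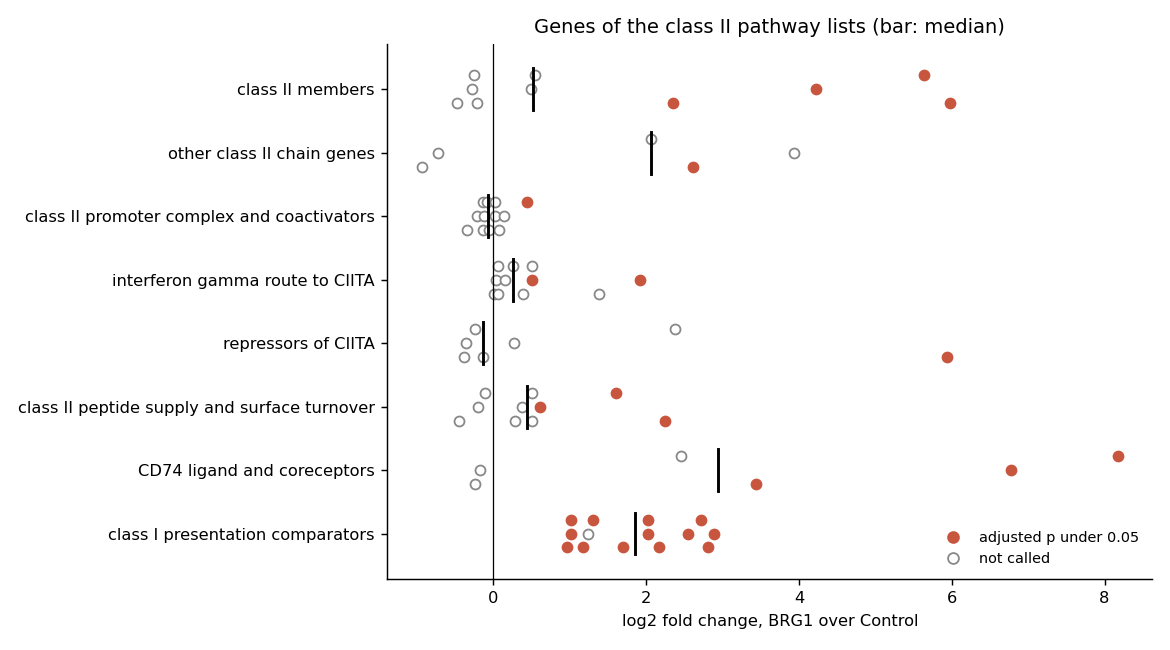
DESeq2 log2 fold change (BRG1 over Control) of each gene with an adjusted p in 8 lists of the class II pathway and its class I comparator, with filled points called at an adjusted p under 0.05 and bars at the list median. Class II members are split between values near 0 and called values above 2, the promoter complex lies near 0, and class I genes lie between 0.96 and 2.89.

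Markers of immune cells were read beside these results, since such cells carry class II RNA. Of 13 markers, 8 of which had an adjusted p, DESeq2 called 2 higher (11.0% over all genes). edgeR called 1 of the 3 it tested, LYZ (9.57% over all genes). LYZ could pass the low-count filter of edgeR only through the BRG1 samples, so this share follows in part from the filter. The 2 called by DESeq2 were LYZ (at least 6.03-fold, adjusted p = 0.00261) and CD80 (at least 4.46-fold, adjusted p = 0.000809, not tested by edgeR). Other genes share 34.7% of the exonic bases of LYZ and 24.8% of those of CD80. The summed normalised count of the list was 1863 to 2881 in Control and 2480 to 3983 in BRG1 samples. Most of it came from CD68 (1736 ± 700 and 2757 ± 812), which was called with the block only (adjusted p = 0.00132). CD68 shares 85.6% of its exonic bases with other genes and reads cannot be told by strand, so its value is uncertain. The B and T cell markers MS4A1, CD79B and CD3E and the macrophage marker AIF1 were at or near 0 in every sample. CD79A, also a B cell marker, had 3.65, 8.21 and 3.79 normalised counts in Control and 6.53, 7.48 and 13.4 in BRG1 samples. The myeloid marker CD14 had 7.31, 2.35 and 6.06 in Control and 5.08, 2.49 and 13.4 in BRG1 samples. For CD79A and CD14 the groups overlapped, and neither was called (adjusted p = 0.748 and 0.931). PTPRC, the common leukocyte gene, was present in both groups at 505 ± 167 and 520 ± 185 (log2 fold change 0.04, adjusted p = 0.977). CSF1R (1.88 ± 2.62 and 8.56 ± 3.44) and ITGAX (1.46 ± 0.875 and 9.35 ± 7.96) were low and not called. The part of these markers in the class II values was not tested.

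The cell line label was read against 8 granulosa cell markers, since COV434 was long used as a granulosa tumor line. FOXL2, FSHR and NR5A1 were at or near 0 in all samples and AMHR2 had no count. INHA was present in both groups (41.9 ± 4.91 and 38.2 ± 3.20 normalised counts, adjusted p = 0.923) and STAR was low (5.06 ± 2.92 and 3.60 ± 3.14), and neither was called. INHBA (log2 fold change 2.94, adjusted p = 6.2e-07) and CYP19A1 (log2 fold change 3.76, adjusted p = 8.7e-20) were called higher. These were 2 of the 4 markers with an adjusted p, beside 11.0% over all genes. The summed level of the list was 141 to 176 normalised counts in Control and 493 to 1643 in BRG1 samples. INHBA (701 ± 475) and CYP19A1 (322 ± 115) made up most of it in BRG1 samples. The part of the granulosa markers in the class II values was not tested.

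Genes whose pattern over the 6 samples was most like that of CIITA, CD74 and HLA-DRA were taken by Pearson's r of log2(normalised count + 1) among genes with a mean of at least 10 normalised counts (14218 for CIITA and HLA-DRA, 14219 for CD74), as a description. The samples share their group labels and depth, and with so many genes high values of r arise over 6 points. Those closest to CIITA were SCAF11 (r = 0.988), VPS37A (0.973), MRPS18C (0.965), PRR14 (0.961) and CCR10 (0.953), none of them called. The closest to CD74 were SLC12A2 (r = 0.996), HLA-E (0.995), AUTS2 (0.993), LOXL4 (0.993) and MFAP3 (0.992), and those closest to HLA-DRA were TSPAN2 (r = 0.998), AVEN (0.998), RAET1E (0.997), EHD2 (0.996) and CDH5 (0.996). All of these but MFAP3 were called higher with BRG1, so that the lists for CD74 and HLA-DRA held mainly genes that separate the groups, and that for CIITA held genes that do not.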

How the data were processed

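RNA-seq of 3 Control and 3 BRG1 samples of COV434 cells was analysed from 1 table. The authors made its values, estimated counts per gene, by aligning paired 78-base reads with STAR 2.5.3a (hg38), quantifying with Salmon 0.8.2 and scaling TPM by transcript length and library size in tximport, and the deposited estimated counts were rounded here to whole numbers. This scaling removes differences in isoform length. The quantification before it splits reads shared by similar genes by a model, which makes values of polymorphic HLA genes uncertain.

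DESeq2 1.42.0 (Wald test, no covariate, Benjamini-Hochberg adjustment) in R 4.3.3 was the main test, as in the methods of the study. edgeR 4.0.16 (quasi-likelihood) and limma 3.58.1 (voom), each with TMM factors, were alternatives. On simulated data for BRG1 against Control in which 200 genes had a log2 change of 2, 22% of DESeq2 calls (17422 genes) and 5.26% of edgeR calls (14245 genes) were false, so edgeR values stand beside DESeq2 calls. The simulation had fewer changed genes than were called here and no replicate effect. None of its changed genes had a mean count as low as CD74, HLA-DRA or HLA-DPB1. Its false shares therefore need not hold for the calls in these data. Replicate numbers are shared by title only, but same-numbered samples deviated together (correlations 0.569, 0.610 and 0.643 over 11686 genes, all other pairs 0.119 or lower), so a fit with the number as a block was added. A group with all 3 samples at 3 counts or fewer was at the floor, and folds against it are lower bounds computed from a mean floor of 3.15 normalised counts. Intervals are 95% Wald intervals, and precision is set by totals of 29699741 to 63613710 counts. Coordinates and lengths are from GENCODE release 44 on GRCh38.

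Members and gene lists were chosen with earlier results of these data known. All members, the called genes and stated exceptions of 10 further lists (93 genes), SMARCA4, the genes between the outermost class II genes, and the 5 genes most correlated with each of CIITA, CD74 and HLA-DRA (mean of at least 10 normalised counts) were named. Some genes of these pathways are not reported here. Other settings were TMM factors, library totals, at least 10 counts in 3 samples, no independent filtering, an adjusted p under 0.01, a floor of 1 count and leaving out each sample.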

Additional observations from a re-analysis of the deposited data

How the results depend on the processing

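The calls of HLA-DRA, HLA-DPA1 and HLA-DPB1 were kept with edgeR, limma-voom, the replicate block and each sample left out. However, edgeR and limma-voom shared a filter on low counts that HLA-DRA and HLA-DPB1 could pass only through the BRG1 samples. For these members the calls by edgeR and limma-voom follow in part from the filter. Depth was a limit for some members, since CD74, HLA-DRA and HLA-DPB1 had at most 3 counts in every Control sample, and with a floor of 1 count per sample 0 members were at the floor in place of 3. A filter of at least 10 counts in 3 samples left 2 members called in place of 4, because CD74 and HLA-DRA were then not tested. The replicate block left the same 4 members called, and changed no call other than those given here or in the text.

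Over the whole table the number of genes called lower, 294, became 146 by edgeR, 169 by limma-voom, 166 using library totals and 130 at an adjusted p under 0.01. It rose to 1035 by DESeq2 and 809 by edgeR once the replicate block was in the model, and ran from 117 to 596 when 1 sample was left out. Other class II chain genes, 1 higher and 0 lower, became 0 higher and 1 lower with the replicate block, 0 higher with the count filter and 0 to 1 with 1 sample left out (0 without Control replicate 3, BRG1 replicate 1 or BRG1 replicate 2). The 1 promoter complex gene called, NFYB, was lost (0) by edgeR, limma-voom, TMM factors, the 0.01 threshold and 5 of 6 samples left out (range 0 to 1). For the interferon gamma route 2 became 1 by edgeR, limma-voom or the 0.01 threshold and 5 with the replicate block, alone or in edgeR, and 0 to 2 with 1 sample left out (0 without BRG1 replicate 2, 2 without BRG1 replicate 3 and 1 without any other). For repressors of CIITA 1 higher became 2 and 0 lower became 2 with the replicate block, 1 lower where edgeR had the block, and 1 to 2 higher and 0 to 1 lower with 1 sample left out. For peptide supply 3 became 5 with the replicate block, alone or with edgeR, and 2 to 5 with 1 sample left out. With 1 sample left out the log2 fold change of CIITA ran from -1.02 to 0.38 (0.38 without Control replicate 2, 0.08 without BRG1 replicate 3). That of PTPRC ran from -0.27 to 0.29 (-0.19 without Control replicate 1, -0.27 without BRG1 replicate 3) and was -0.09 by limma-voom. The cause of these shifts was not tested. Over the 53 named genes, 698 alternative values kept direction and side of the threshold, 46 lost the call, 20 gained one and 5 changed sign.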
